A study of Homo sapiens with 4 samples.

Results

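The genes described here are 35 listed genes of the unfolded protein response, of ER-associated degradation and of the ATF4 response. They were taken from a fixed list of symbols and matched by GENCODE symbol to the Ensembl identifiers of the count tables, and all 35 were found among 60308 gene identifiers. Of the 35, 33 had enough reads to be tested, among 12848 genes tested in all. By role, 11 encode ER chaperones and their cofactors, 4 encode ERAD factors, 16 are ATF4 target genes, and 4 are sensors or master transcription factors (ATF6, ERN1, XBP1 and ATF4).

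The RNA came from VCaP cells, an established human prostate cancer line, grown in DMEM with serum. The cells received either a control siRNA with no target (siNTC) or one directed at ZBTB7A (siZBTB7A) by transfection. ZBTB7A is a zinc finger transcription factor that acts mainly as a repressor, and the comparison asks which genes differ once its RNA is targeted. Each group had 2 count tables, and no label says that they came from separate cultures. Both groups carried an siRNA, and untransfected cells were not analysed here.

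The ER folds secreted and membrane proteins with the help of chaperones, and misfolded proteins are passed back to the cytosol for degradation (ERAD). When folding is overloaded, the sensors ATF6 and IRE1 (encoded by ERN1) and the factor XBP1 raise chaperone and ERAD genes, while the kinase PERK acts through eIF2 on translation of ATF4. ATF4 also answers a lack of amino acids, and raises genes for amino acid synthesis and transport together with the stress factors DDIT3, TRIB3 and CHAC1. Secretory cells of the prostate depend on this folding machinery.

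The 2 tables of a group differed by no more than read sampling, with a chi-square per degree of freedom of 0.993 in siNTC and 0.995 in siZBTB7A over all genes with at least 20 summed reads. Over the members it was 1.14 (33 genes) and 0.825 (32 genes), against 5.66 to 6.75 between tables of different groups, where all genes gave 3.50 to 3.64. The statistic grows with depth, and it used gene read totals, not the scaled library sizes used for the folds below. The 2 tables of a group were therefore counted as 1 library, so no difference below has a replicate check. The test used, edgeR's quasi-likelihood test with Benjamini-Hochberg adjustment over all genes tested, compares these 2 libraries and not the 2 conditions, and "lower" or "higher" means an adjusted p under 0.05 in it. Folds come from the summed tables and carry exact 95% intervals that cover counting error only. Levels are given as CPM, read counts scaled to TMM-adjusted library size. Gene reads numbered between 5556061 and 5927656 per table. ZBTB7A was counted at 90 and 115 reads per control table against 70 and 74 after its siRNA, a fold of 0.743 (0.596 to 0.924), and did not pass the test (adjusted p = 0.0969). All 6 luminal and VCaP markers were detected, at a summed 5354 and 5325 CPM in siNTC and 5518 and 5534 CPM in siZBTB7A. Of the 6, 3 were higher, against 2.25% of all genes tested. At a mean of 100 CPM or more, where 5 of the 6 lay, 8.34% of all genes were higher. With a correction for transcript GC content and length 1 of the 6 was higher. The part of these markers in the results was not tested. The 6 matched leukocyte and endothelial markers had 22 and 32 summed reads (CD3E and CDH5 among those at 0 in both groups). The 5 fibroblast markers had 193 and 159, of which LUM made up 178 and 144 and COL1A2 was at 0.

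Of the 11 ER chaperone genes 5 were lower in the siZBTB7A library, with folds from 0.775 to 0.952, and of the 7 tested genes of amino acid synthesis and transport 0 were lower. Of the 33 members tested, 7 were lower and 0 higher, where 2.72% of all genes tested were lower and 2.25% higher (350 and 289 genes). With gene read totals in place of TMM scaling, 583 genes were lower and 171 higher. The lower members were the chaperone genes HSPA5, HSP90B1, CALR, CANX and SDF2L1 and the ATF4 targets VLDLR and DDIT4. A fold below 1 was found for 21 of the 33, against 49.8% of all genes tested, and the median log2 fold was -0.07, against 0.00080 over all genes tested. Both siZBTB7A tables lay below both siNTC tables in 15 members and above them in 5, against 23.4% and 23.5% of all genes tested.

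**Figure D1:**
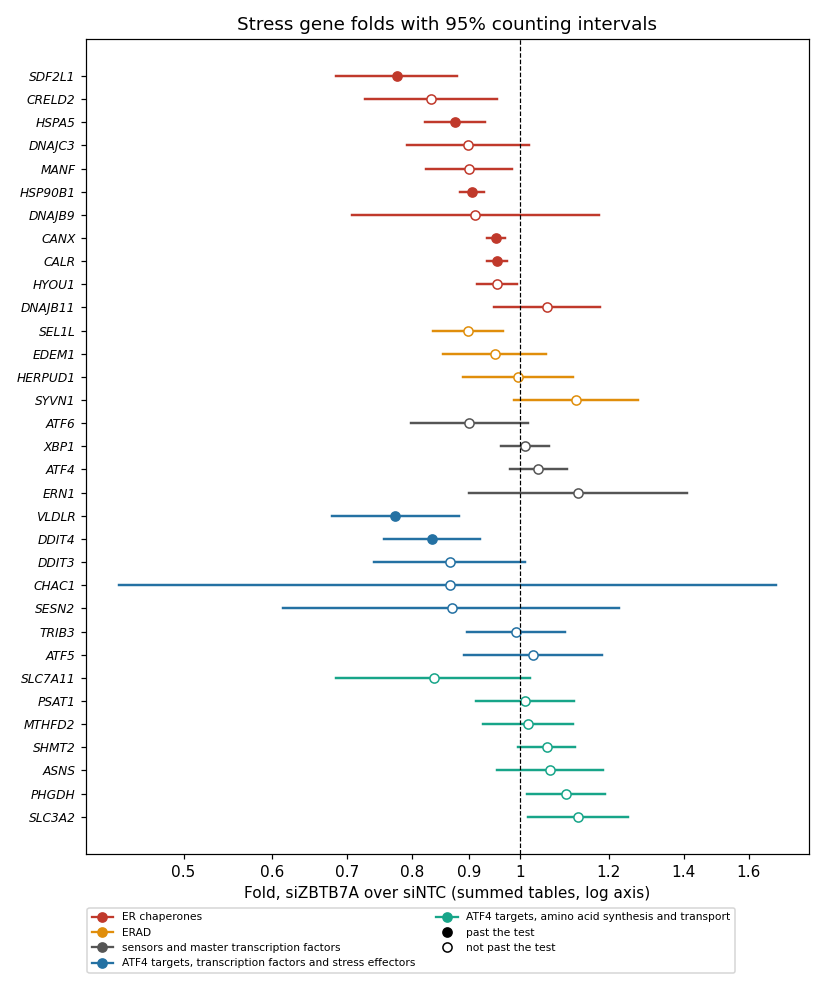
Fold of each tested member, siZBTB7A over siNTC, on a log axis, with bars for the exact 95% counting interval and colours for the role. Filled points passed the test: 5 chaperone genes and 2 ATF4 targets, all below 1.

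HSPA5 encodes BiP, the ER member of the HSP70 family, which also holds the sensors of the unfolded protein response inactive. Its level was 188.9 and 189.8 CPM in the siNTC tables and 164.8 and 166.1 CPM in the siZBTB7A tables. The groups did not overlap, but tables of 1 group differ by read sampling only, so this separation has no replicate check. The fold was 0.874 (0.821 to 0.930), and the gene was lower with an adjusted p of 0.00138 in edgeR's test. DESeq2 did not pass it (adjusted p = 0.0857), at nearly the same log2 fold, -0.20 against -0.19.

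HSP90B1 encodes GRP94, the HSP90 chaperone of the ER. It stood at 1165 and 1150 CPM in siNTC and at 1041 and 1053 CPM in siZBTB7A. The groups did not overlap. The fold was 0.905 (0.882 to 0.927) from 13620 and 11643 reads, with the smallest adjusted p among the members (1.07e-09 in edgeR's test), and the gene was lower in all 14 alternative fits run, with log2 folds from -0.18 to -0.13.

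CALR and CANX encode calreticulin and calnexin, the soluble and the membrane-bound lectin chaperones that hold newly made glycoproteins. CALR was at 1665 and 1656 CPM in siNTC and at 1573 and 1589 CPM in siZBTB7A, and CANX was at 1996 and 2017 CPM against 1913 and 1900 CPM. Both were lower by about the same small step, with folds of 0.952 (0.933 to 0.972) and 0.9502 (0.933 to 0.968). CALR sat at the edge of the threshold without the first siZBTB7A table (adjusted p = 0.0505 in edgeR's test) and in DESeq2 (0.05002). CANX was lower in all 14 alternative fits.

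SDF2L1, a partner of the ER DNAJ proteins that is induced by ER stress, had the lowest fold of the chaperone genes. It was counted at 52.9 and 48.8 CPM in siNTC and at 38.0 and 40.7 CPM in siZBTB7A. With a fold of 0.775 (0.684 to 0.878) it passed the test (edgeR adjusted p = 0.00412), but not without the first siNTC table (adjusted p = 0.104) or the first siZBTB7A table (adjusted p = 0.0991).

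The other 6 chaperone genes did not pass the test. CRELD2, a secreted ER stress protein, had a fold of 0.833 (0.727 to 0.954), and MANF, a secreted ER stress protein that binds BiP, 0.9004 (0.824 to 0.984). The large HSP70-related chaperone gene HYOU1 had 0.953 (0.915 to 0.994). These 3 intervals lay below 1. With gene read totals HYOU1 and CRELD2 passed, and without the second siNTC table MANF did (edgeR adjusted p = 0.0151, 0.0456 and 0.0365). The BiP cochaperone genes DNAJC3, DNAJB9 and DNAJB11 had folds of 0.898 (0.791 to 1.019), 0.911 (0.706 to 1.17) and 1.057 (0.947 to 1.18). In all, 10 of the 11 chaperone genes had a fold below 1, against 49.8% of all genes tested, and the median log2 fold of the 11 was -0.14.

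**Figure D2:**
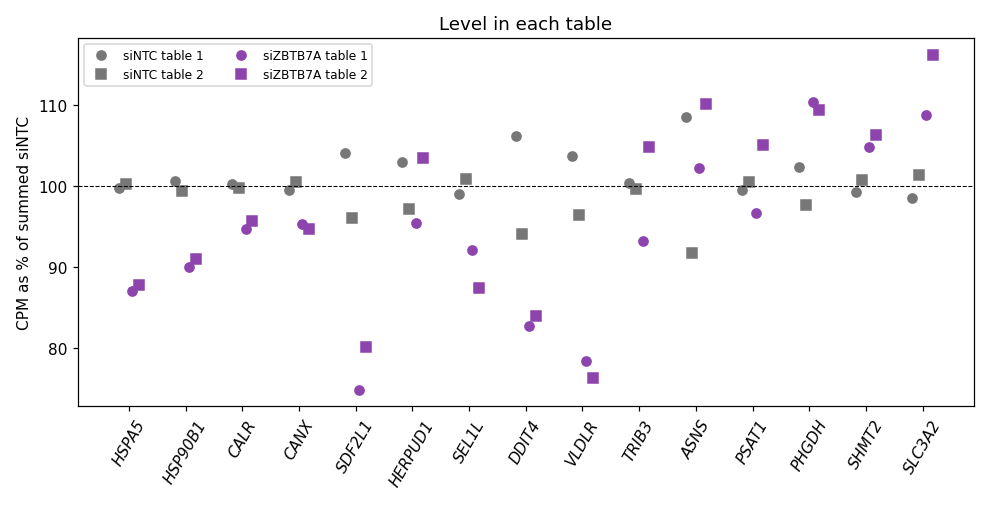
CPM in each of the 4 tables as a percentage of the summed siNTC level, for 15 members. For the chaperone genes HSPA5, HSP90B1, CALR, CANX and SDF2L1 both siZBTB7A tables lie below both siNTC tables, while the tables of TRIB3, ASNS and PSAT1 interleave.

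The promoters of the lower chaperone genes hold a known element. The ER stress response element (ERSE), bound by ATF6 and XBP1 together with NF-Y, reads CCAAT, 9 bases of any kind, CCACG, and the shorter ERSE-II reads ATTGG, 1 base of any kind, CCACG. Both were searched on either strand in the RefSeq promoter table (build GRCh38.p14, 250 bases before to 50 after each annotated start), where all 15 chaperone and ERAD genes had an entry, and all 4 sensor genes. ERSE was found in 5 of the 11 chaperone genes (HSPA5, HSP90B1, CALR, CANX and CRELD2), and ERSE-II in HYOU1 and SDF2L1. Of all 35116 promoters in the table, 0.0769% hold ERSE and 0.0541% ERSE-II. A gene can have several promoters, and counted by gene the shares were 0.156% and 0.146% of 9601 tested genes with an entry. Both elements are known from the ER stress response, and these members were listed as genes of that response. The comparison of shares therefore tests nothing. The following 250 bases before the start are shown because these 3 genes were lower and carry 1 or 2 matches each, in capitals. HSPA5 is at chr9:125241344-125241593, minus strand, HSP90B1 at chr12:103930160-103930409, plus strand, and SDF2L1 at chr22:21642052-21642301, plus strand.
HSPA5: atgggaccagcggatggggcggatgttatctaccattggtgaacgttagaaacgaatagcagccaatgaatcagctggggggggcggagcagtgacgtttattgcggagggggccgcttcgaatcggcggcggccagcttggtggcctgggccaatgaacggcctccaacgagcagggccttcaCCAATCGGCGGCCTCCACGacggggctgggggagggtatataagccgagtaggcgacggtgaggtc
HSP90B1: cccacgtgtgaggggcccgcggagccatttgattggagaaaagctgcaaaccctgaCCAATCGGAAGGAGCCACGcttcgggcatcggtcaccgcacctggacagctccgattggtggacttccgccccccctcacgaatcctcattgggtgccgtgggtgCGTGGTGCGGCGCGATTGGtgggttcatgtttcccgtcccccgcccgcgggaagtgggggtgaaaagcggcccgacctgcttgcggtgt
SDF2L1: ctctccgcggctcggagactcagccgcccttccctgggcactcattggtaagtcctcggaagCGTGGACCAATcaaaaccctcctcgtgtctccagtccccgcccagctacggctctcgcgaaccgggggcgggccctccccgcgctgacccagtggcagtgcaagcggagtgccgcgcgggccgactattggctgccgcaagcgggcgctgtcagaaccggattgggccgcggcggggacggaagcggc

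The match in HSPA5 is an ERSE that begins 66 bases before the start. HSP90B1 has 2 ERSE matches, the upstream one on the strand shown and the downstream one on the opposite strand, and SDF2L1 has 1 ERSE-II on the opposite strand. All 5 lower chaperone genes hold ERSE or ERSE-II, with CRELD2 and HYOU1 the other 2 chaperone genes that do. The folds of these 7 ran from 0.775 to 0.953. The 4 chaperone genes with neither motif (DNAJB9, DNAJB11, DNAJC3 and MANF) had folds from 0.898 to 1.057, and 0 were lower. The median log2 fold was -0.14 in both sets. Outside the chaperone list, HERPUD1 holds ERSE-II and XBP1 holds ERSE. Their folds were 0.995 and 1.01, and neither passed the test. The 4 genes without a motif were at 11.6 to 92.9 CPM in siNTC, and DNAJB9, DNAJC3 and MANF had folds further from 1 than CALR and CANX, which passed the test at 1660 and 2007 CPM. Of 20 tested genes that are not members and hold ERSE or ERSE-II, 0 were lower and 1 higher in edgeR's test, and 13 had a fold below 1, with a median log2 fold of -0.07. Over all genes tested these shares were 2.72%, 2.25% and 49.8%.

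**Figure D3:**
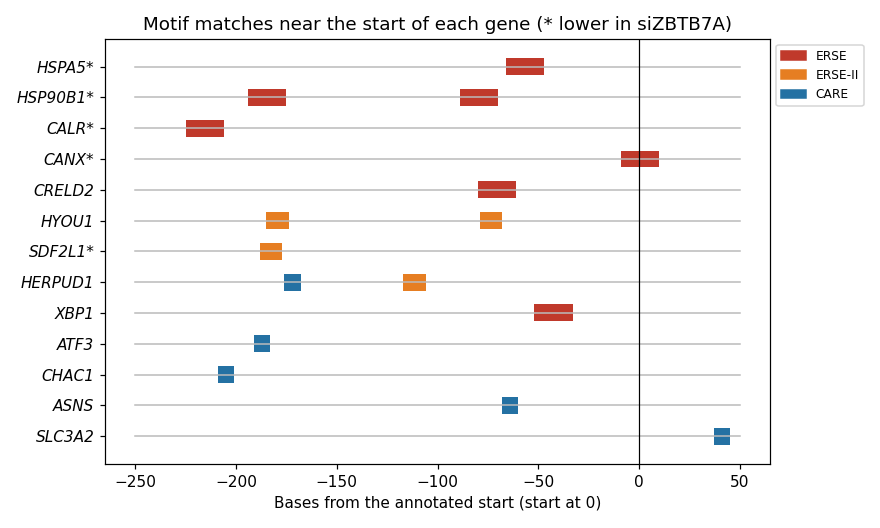
Motif matches in the 13 members that have one, drawn over the 250 bases before and 50 after 1 annotated start per gene, with the start at 0 and an asterisk for genes lower in siZBTB7A. ERSE and ERSE-II lie at the chaperone genes, HERPUD1 and XBP1, and CARE at HERPUD1 and 4 ATF4 targets.

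Of the 4 ERAD genes 0 passed edgeR's test, where 2.72% of all genes tested were lower and 2.25% higher. The 4 are too few to set against these shares. Of the 4, 1 (SEL1L) had an unadjusted p under 0.05. DESeq2 gave an adjusted p for SEL1L alone among them (0.304). SEL1L and SYVN1 encode the adaptor and the ubiquitin ligase (HRD1) of the main ERAD complex. SEL1L was at 139.3 and 141.9 CPM in siNTC and 129.5 and 123.0 CPM in siZBTB7A, a fold of 0.897 (0.835 to 0.964) that missed the threshold (edgeR adjusted p = 0.0531) and passed it with gene read totals (0.00782). SYVN1 lay on the other side, at 1.12 (0.987 to 1.27). Its exons overlap those of FAU on the same strand in GENCODE 29, and reads in such an overlap are not counted for either gene. Among the other members, HSP90B1, DNAJB11, DDIT3, ATF5 and ASNS also have a same-strand overlap with an annotated gene. EDEM1, a lectin that extracts misfolded glycoproteins, had 0.949 (0.853 to 1.055).

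HERPUD1, a membrane scaffold of ERAD that ER stress induces strongly, had 55.5 and 52.3 CPM in siNTC and 51.4 and 55.7 CPM in siZBTB7A. The tables of the 2 groups interleaved, and the fold was 0.995 (0.888 to 1.11). Its promoter (chr16:56931892-56932141, plus strand) is shown because it joins both arms: the upstream capitals are a match, on the opposite strand, to CARE, the C/EBP-ATF element through which ATF4 acts (TGATG, 1 base of any kind, AA), and the downstream ones an ERSE-II.
HERPUD1: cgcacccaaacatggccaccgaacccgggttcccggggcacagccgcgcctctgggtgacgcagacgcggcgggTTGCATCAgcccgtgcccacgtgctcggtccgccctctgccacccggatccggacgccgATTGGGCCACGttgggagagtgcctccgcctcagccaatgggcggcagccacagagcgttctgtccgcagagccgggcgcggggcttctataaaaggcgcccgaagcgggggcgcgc

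Of the 4 sensors and master factors 0 passed edgeR's test, 0 having an unadjusted p under 0.05. Over all genes tested 2.72% were lower and 2.25% higher, and 4 genes are too few to set against these shares. DESeq2 gave an adjusted p for XBP1 (0.913) and ATF4 (0.743), and none for ATF6 and ERN1. XBP1, itself a target of ATF6 and with an ERSE in its promoter, was at 280.0 and 272.7 CPM in siNTC and at 276.2 and 282.0 CPM in siZBTB7A, a fold of 1.01 (0.962 to 1.06). ATF4 had 195.0 and 190.3 CPM against 207.0 and 192.9 CPM, a fold of 1.038 (0.978 to 1.10). In both genes the tables of the groups interleaved. Splicing of XBP1 and translation of ATF4, where much of their control lies, are not seen in gene counts. The sensor genes ATF6 and ERN1 had folds of 0.9002 (0.798 to 1.015) and 1.13 (0.8998 to 1.41).

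Of 16 ATF4 targets listed, 14 were tested, and 2 were lower and 0 higher, against 2.72% and 2.25% of all genes tested. VLDLR, a lipoprotein receptor gene induced through PERK and ATF4, was at 48.4 and 44.97 CPM in siNTC and at 36.6 and 35.6 CPM in siZBTB7A, a fold of 0.773 (0.678 to 0.881). DDIT4 encodes REDD1, an inhibitor of mTORC1 that hypoxia and glucocorticoids also induce. It was at 81.9 and 72.6 CPM in siNTC and at 63.8 and 64.8 CPM in siZBTB7A, a fold of 0.833 (0.754 to 0.920). In both genes the groups were apart, more widely so in VLDLR. VLDLR no longer passed with a correction for transcript GC content and length (edgeR adjusted p = 0.0691), without the first siNTC table (0.111) or without the second siZBTB7A table (0.0852). DDIT4 no longer passed with unstranded counts (0.111), without the first siNTC table (0.337), or without the first or second siZBTB7A table (0.106 and 0.0776).

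Stress effectors with the closest tie to ATF4 did not pass the test. TRIB3, a pseudokinase that dampens the ATF4 response, had 69.0 and 68.4 CPM in siNTC and 64.0 and 72.0 CPM in siZBTB7A, a fold of 0.991 (0.897 to 1.096). DDIT3 encodes CHOP, the factor of prolonged ER stress, and stood at 32.3 and 30.1 CPM against 27.4 and 26.5 CPM, a fold of 0.865 (0.740 to 1.010). ATF5, a related factor, had 1.026 (0.890 to 1.18). SESN2, which signals low leucine to mTORC1, and CHAC1, which degrades glutathione, had 0.868 (0.614 to 1.22) and 0.866 (0.438 to 1.69). CHAC1 rested on 22 and 18 summed reads and ATF3 on 13 and 8, too few for a test in the case of ATF3.

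Among genes of amino acid synthesis and transport 6 of 7 tested had a fold above 1, where 49.8% of all genes tested had one below 1. In edgeR's test, which 2.72% of all genes tested passed as lower and 2.25% as higher, 0 of these genes passed. Of these genes 2 had an unadjusted p under 0.05, PHGDH and SLC3A2. DESeq2 gave an adjusted p for SHMT2 alone among them (0.605). ASNS makes asparagine and is a standard ATF4 target. It had 61.7 and 52.2 CPM in siNTC and 58.2 and 62.6 CPM in siZBTB7A, so the tables interleaved, and its fold was 1.063 (0.954 to 1.18). PHGDH and PSAT1 catalyse the first steps of serine synthesis. PHGDH was at 102.3 and 97.6 CPM in siNTC and at 110.3 and 109.3 CPM in siZBTB7A, a fold of 1.099 (1.013 to 1.19), and PSAT1 had 1.009 (0.912 to 1.12).

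The mitochondrial folate enzyme genes SHMT2 and MTHFD2, which carry serine carbon on, had folds of 1.056 (0.996 to 1.12) and 1.015 (0.925 to 1.11). SLC3A2 encodes the heavy chain (CD98) shared by the exchangers SLC7A5 and SLC7A11. It was at 60.3 and 62.0 CPM in siNTC and at 66.6 and 71.1 CPM in siZBTB7A, a fold of 1.13 (1.016 to 1.25), with both siZBTB7A tables above both siNTC tables. SLC7A11, the light chain of the cystine importer, had 0.836 (0.684 to 1.021). SLC7A5, the light chain of the leucine importer LAT1, had only 9 and 4 summed reads and was not tested. ASNS, PSAT1, MTHFD2, SLC7A5, ATF4 and XBP1 have pseudogene copies in GENCODE 29, found as the gene symbol followed by P and a number. Reads that map to several places are outside the gene counts, so the counts of these genes are uncertain. Copies under other names were not sought, so other members may have them too.

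SHMT2 and SLC7A11 have no entry in the promoter table. Among the ATF4 targets, CARE was found near the start of ASNS, CHAC1, ATF3 and SLC3A2, 4 of the 14 with a promoter entry. Of all promoters 3.62% hold it, and counted by gene 4.46% of all genes with an entry and 2.61% of those tested. ATF4 acts through CARE and these genes were listed as its targets, so this comparison of shares tests nothing. ERSE or ERSE-II was held by 0 of the 14. The 250 bases before the start of ASNS (chr7:97872409-97872658, minus strand) and CHAC1 (chr15:40953221-40953470, plus strand) are shown as the amino acid counterpart of the chaperone promoters above, with CARE in capitals, on the strand shown in ASNS and on the opposite strand in CHAC1.
ASNS: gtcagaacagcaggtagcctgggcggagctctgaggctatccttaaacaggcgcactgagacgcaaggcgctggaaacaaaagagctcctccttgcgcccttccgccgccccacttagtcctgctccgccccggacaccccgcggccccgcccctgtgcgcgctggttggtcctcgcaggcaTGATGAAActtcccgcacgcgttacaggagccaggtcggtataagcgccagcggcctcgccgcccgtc
CHAC1: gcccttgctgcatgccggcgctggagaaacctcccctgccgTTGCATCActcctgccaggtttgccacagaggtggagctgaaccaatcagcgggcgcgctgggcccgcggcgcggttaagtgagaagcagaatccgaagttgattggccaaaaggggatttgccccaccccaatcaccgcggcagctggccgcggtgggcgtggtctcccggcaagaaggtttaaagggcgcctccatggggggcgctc

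The folds of the 3 tested ATF4 targets with CARE were 0.866 for CHAC1, 1.063 for ASNS and 1.13 for SLC3A2, and 0 passed edgeR's test. Of 247 tested genes that are not members and hold CARE, 7 were lower and 6 higher, close to the 2.72% and 2.25% of all genes tested. VLDLR and DDIT4, the lower ATF4 targets, had none of the 3 motifs in this window.

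Set side by side, the 15 chaperone and ERAD genes had a median log2 fold of -0.13, with 5 lower, 0 higher and 13 folds below 1. The 14 tested ATF4 targets had a median of 0.00015, with 2 lower, 0 higher and 7 folds below 1. Of all genes tested, 2.72% were lower, 2.25% were higher and 49.8% had a fold below 1. Within the ATF4 targets the 7 tested stress factor genes had a median of -0.21 and the 7 tested amino acid genes of 0.08. The stress factor median is the value of CHAC1, at 22 and 18 summed reads. That of the chaperone and ERAD genes is the value of DNAJB9, at 137 and 118. Both are genes with wide counting intervals. The median gene of both lists was counted alike, at 1411 and 1413.5 reads over the 4 tables, but the lists differ in depth at the top: they sum to 70851 and 9946 reads in siNTC, with 6 and 2 genes at 100 CPM or more. The difference between the medians was 0.13. It was 0.06 with the GC and length correction and 0.05 without the second siNTC table, 0.06 without the first siNTC table and 0.07 without the second siZBTB7A table, and was not tested. For the first siZBTB7A table over the first siNTC table alone the order reversed. There the ATF4 targets had a median of -0.114 and the chaperone and ERAD genes of -0.105. In the other table pairs the ATF4 targets had the higher median. The count of lower members went from 7 to 4 without the first siNTC table, to 4 without the first siZBTB7A table, and to 2 in DESeq2, which gave an adjusted p for 9 members.

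Summed over genes, the 15 chaperone and ERAD genes took 0.607% of gene reads in siNTC (0.603% to 0.612%) and 0.555% in siZBTB7A (0.551% to 0.560%), at 0.6076% and 0.6071% in the siNTC tables against 0.5556% and 0.5552% in the siZBTB7A tables. The 16 ATF4 targets took 0.0853% (0.0836% to 0.0870%) and 0.0833% (0.0816% to 0.0850%). Their tables overlapped, at 0.0868% and 0.0838% against 0.0817% and 0.0848%. On the scaled counts the summed folds were 0.938 (0.928 to 0.948) for chaperone and ERAD genes and 1.002 (0.974 to 1.030) for the 16 ATF4 targets. Within the ATF4 targets they were 0.892 (0.847 to 0.939) for the 8 stress factor genes and 1.052 (1.017 to 1.088) for the 8 amino acid genes. These sums are weighted to the deepest genes, CANX, CALR and HSP90B1 in the first. Of the 3142 and 2648 stress factor reads in siNTC and siZBTB7A, DDIT4 had 908 and 715 and VLDLR 549 and 401.

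**Figure D4:**
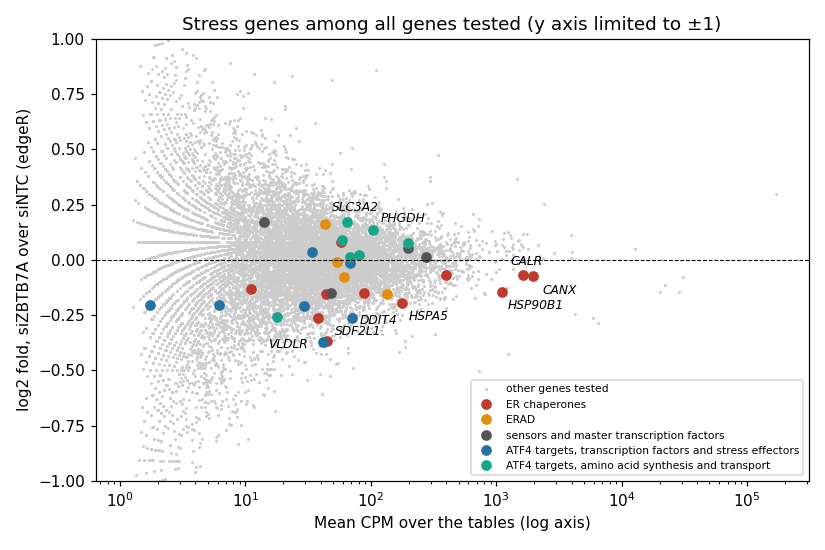
Log2 fold against mean CPM (log axis) for all 12848 genes tested, in grey, with the members in colour by role. The chaperone genes CALR, CANX and HSP90B1 lie far to the right, below 0, and SDF2L1 and VLDLR are the lowest members.

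Calls depend on depth, and the chaperone genes include the most abundant members. Among 1595 genes at a mean of 100 CPM or more, a level chosen after the data were seen, 10.9% were lower, 8.34% were higher and 51.2% had a fold below 1. Both siZBTB7A tables lay below both siNTC tables in 32.9% and above them in 31.6%. Of the 6 chaperone and ERAD genes at that level (HSPA5, HSP90B1, CALR, CANX, HYOU1 and SEL1L), 4 were lower, all 6 had a fold below 1 with both siZBTB7A tables below, and the median log2 fold was -0.11, while the 2 ATF4 targets there, PHGDH and SHMT2, had a median of 0.11, and all genes at that level had -0.0026.

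As RPKM, the CPM divided by the kilobases of the longest annotated transcript, the level in siNTC was highest for CALR (873 RPKM), followed by CANX (471), HSP90B1 (382), XBP1 (127), ATF4 (95.4) and HYOU1 (90.6). MANF (61.6), SDF2L1 (58.8), SHMT2 (56.6), HSPA5 (48.4) and DDIT4 (44.1) came next. Per length, HSPA5 stood far below CALR, CANX and HSP90B1. The lowest members were ERN1 (1.69), CHAC1 (1.01), ATF3 (0.525) and SLC7A5 (0.169), and the rest lay between 1.92 and 31.4. In siZBTB7A SDF2L1 was at 45.5 RPKM.

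A spline correction of the folds for transcript GC content and length gave 358 calls over all genes, against 639 without it, and the members were read after it too. SDF2L1, the shortest member transcript (865 bases) with the highest GC content (65.5%), went from a log2 fold of -0.37 to -0.48. CALR went from -0.07 to -0.12, and HSPA5 (-0.19 to -0.20) and HSP90B1 (-0.14 to -0.13) hardly moved. CANX went from -0.07 to -0.06. All 5 still passed edgeR's test. The long, AT-rich transcripts of SEL1L (7925 bases, 39.4% GC) and SLC7A11 (9645 bases, 35.4% GC) went nearer to 0, from -0.16 to -0.07 and from -0.26 to -0.15. After the correction 6 members were lower and 0 higher, VLDLR being the one lost.

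**Figure D5:**
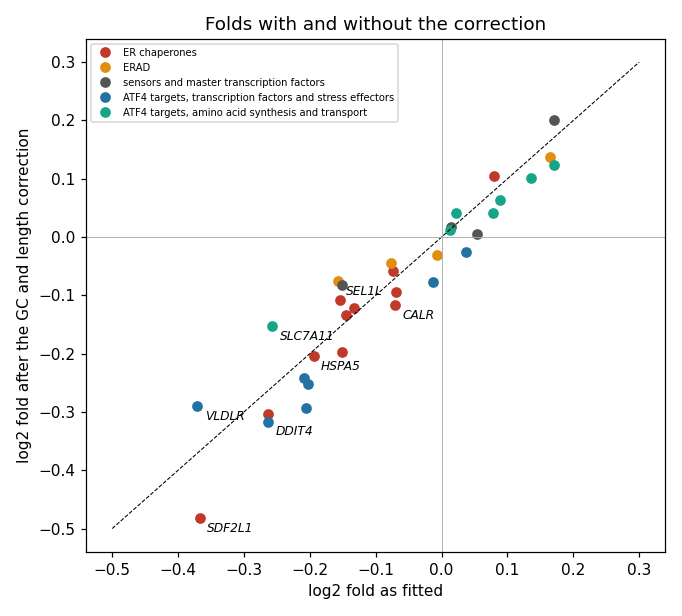
Log2 fold of each tested member as fitted (x axis) and after the correction for transcript GC content and length (y axis), coloured by role, with the dashed line of equality. SDF2L1 lies below the line at -0.48, while VLDLR, SEL1L and SLC7A11 lie above it.

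The rest of the pathway, 86 further genes on 4 lists, was read in the same fit. Of the 84 tested, 5 were lower and 1 higher, against 2.72% and 2.25% of all genes tested, and the median log2 fold was -0.02. Of the 84, 24 were at 100 CPM or more, where 10.9% of all genes were lower and 8.34% higher. Among 21 tested genes of sensing and signalling 1 was lower and 0 higher. This was MBTPS1, the site-1 protease that cuts ATF6 free, at 69.1 and 75.7 CPM in siNTC and 62.5 and 56.4 CPM in siZBTB7A, a fold of 0.820 (0.740 to 0.909). EIF2AK3, which encodes PERK, had 0.931 (0.803 to 1.079).

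Among 25 other ERAD genes 2 were lower and 0 higher. UGGT1, which reglucosylates misfolded glycoproteins for another round with calnexin and calreticulin, had 0.883 (0.825 to 0.946), and FAF2, which recruits VCP to the ER membrane, 0.890 (0.828 to 0.956). Of 17 genes of the translocon and signal peptide processing 1 was lower, the translocon-associated SSR3 at 0.871 (0.812 to 0.934), and 0 were higher. Of all genes tested 2.72% were lower and 2.25% higher. At 100 CPM or more, where 10 of the 25 and 6 of the 17 lay, 10.9% of all genes were lower and 8.34% higher.

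The 21 tested genes of the other ATF4-linked amino acid list had 16 folds above 1 and a median log2 fold of 0.08, where 49.8% of all genes tested had a fold below 1. In edgeR's test 1 was higher and 1 lower, against 2.25% and 2.72% of all genes tested. NUPR1, a small stress-induced chromatin protein that ATF4 controls, was the higher one. It was at 116.3 and 116.7 CPM in siNTC and at 152.2 and 146.0 CPM in siZBTB7A, a fold of 1.279 (1.19 to 1.37) with an edgeR adjusted p of 7.24e-08. The glutamine transporter gene SLC38A1 was lower at 0.920 (0.878 to 0.963). Of the 5 lower genes of these lists 0 passed without the second siZBTB7A table, and 0 without the second siNTC table. In DESeq2 UGGT1, FAF2, SSR3 and SLC38A1 did not pass (adjusted p from 0.139 to 0.245), and MBTPS1 was given no adjusted p. UGGT1 and SLC38A1 also did not pass with the GC and length correction (edgeR adjusted p = 0.346 and 0.566), and NUPR1 passed in every fit run.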

How the data were processed

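Read counts of 4 VCaP RNA-seq tables (2 siNTC, 2 siZBTB7A) were used as deposited. The authors deposited raw counts per gene in the layout of STAR's gene counts. Per the submitters' processing notes the aligner was STAR 2.4.2a, with the builds hg19 and GRCh37; for the gene annotation, the release was not given in the sources used here. Libraries were stranded total RNA, per the labels' protocols. The strand with 24.9 to 25.5 times more reads was used, and the 4 rows that name no gene (50.8% to 51.2% of reads) were left out. Names, transcript GC content and length came from GENCODE 29, which is on another build.

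The members, lists and rules were chosen with earlier results of these data known. All members are named, with ZBTB7A and the pathway genes past the test; EIF2AK3 was added, and single markers singled out, after their values were seen. The value of 1 marker is not reported here. The fit was edgeR 4.0.16 in R 4.3.3 (quasi-likelihood, robust, TMM, filterByExpr, group as the only term) over 12848 genes. Because the tables of a group differ by no more than read sampling, they count as 1 library. On simulated counts with read sampling noise only (12840 genes, siZBTB7A against siNTC) the fit recovered 26.9% of 78 genes changed 1.2-fold. It recovered 69.5% of 59 changed 1.5-fold and 90.5% of 63 changed 2-fold, with 10 false calls. These counts hold no other difference between libraries, so they cannot give the rate of false calls between 2 real libraries. DESeq2 1.42.0, other scalings and filters, unstranded counts, an exact binomial test, a replicate block, leaving out each table, and a GC and length correction were alternatives. Intervals used scipy 1.17.1.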

Additional observations from a re-analysis of the deposited data

How the results depend on the processing

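The count of differing genes, 639, was 358 with the GC and length correction, 85 in DESeq2 and 303 to 373 with 1 table left out. Members lower, 7, numbered 2 in DESeq2 (adjusted p given for 9 members) and 4 to 8 with 1 table left out, and members higher stayed at 0 in each fit. The replicate block gave 654 differing genes and the same 7 and 0, so it changed no count by over 1.5 times. The labels do not say what the numbers share, and tables with the same number shared little of their deviation from the group mean (r = 0.081 across 1595 genes, which are not independent). Pathway genes lower, 5, numbered 11 with gene read totals and no scaling factor, 0 in DESeq2, and 0 to 4 with 1 table left out. Pathway genes higher, 1, numbered 2 with unstranded counts and 1 to 2 with 1 table left out. The chaperone and ERAD median log2 fold, -0.13, was -0.17 with gene read totals and -0.11 with the GC and length correction, and -0.12 to -0.085 with 1 table left out. The ATF4 target median, 0.00015, lay on either side of 0: -0.00056 with DESeq2 size factors, -0.00079 with TMM without mitochondrial genes, -0.0013 in DESeq2, -0.0054 with unstranded counts, -0.036 with gene read totals, -0.051 with the GC and length correction, 0.079 for the amino acid genes alone, and -0.052 to 0.062 with 1 table left out. The difference of the medians, 0.13, was 0.21 with the amino acid genes alone and 0.047 to 0.18 with 1 table left out. Its sign reversed for the first siZBTB7A table over the first siNTC table alone (ATF4 targets -0.114, chaperone and ERAD genes -0.105). Not-called members that changed sign were XBP1 (-0.021), PSAT1 (-0.023) and MTHFD2 (-0.015) with gene read totals and ATF5 (-0.025) with the GC and length correction. With 1 table left out, XBP1 ranged over -0.0039 to 0.030, PSAT1 -0.050 to 0.071, MTHFD2 -0.053 to 0.090, ATF5 -0.044 to 0.12, HERPUD1 -0.069 to 0.049, EDEM1 -0.16 to 0.0038, ASNS -0.029 to 0.21, TRIB3 -0.10 to 0.069 and SESN2 -0.48 to 0.021. The cause was not tested. Where 1 table of a group was left out, the lone table was assumed to vary like the others. DESeq2 gave no adjusted p for 11707 genes, the lower SDF2L1, VLDLR, DDIT4 and MBTPS1 among them, which count as neither kept nor lost. Depth limits CHAC1, ATF3, SESN2 and SLC7A5, whose intervals are the widest among the members.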
